A study of Homo sapiens with 27 samples.

Results

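Cadherins are the transmembrane proteins of adherens junctions, and catenins are the proteins that bind their tails inside the cell. This report describes 10 of the 60619 genes counted in 2 lobular breast cancer cell lines, chosen by name: the cadherins CDH1, CDH2, CDH3 and CDH11 and the catenins CTNNA1, CTNNA2, CTNNB1, CTNND1, CTNND2 and JUP. MM134 (MDA-MB-134VI) and SUM44 are established human cell lines of ER-positive invasive lobular carcinoma (ILC). The LTED cells are long-term estrogen-deprived variants that were derived separately in medium with charcoal-stripped serum: A, B, D and E from MM134, and A and B from SUM44F. SUM44F is SUM44PE adapted to standard serum, and it is the parent of the SUM44 LTED variants. Parental MM134, SUM44F and SUM44PE cells spent 3 days without hormone before collection, so that every group had been in hormone-deprived medium, for days in the parents and for months in the variants. Each of the 9 groups has 3 libraries from 3 wells seeded together. Each variant is 1 derived culture, so p-values measure the spread between wells of that culture and not between derivations. The same holds where variants are averaged.

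In epithelial cells, the outer part of a classical cadherin binds cadherins of the neighbouring cell. Its tail holds p120-catenin (CTNND1) or a relative of it near the membrane and beta-catenin (CTNNB1) or plakoglobin (JUP) at its end, and alpha-catenin (CTNNA1) links the complex to actin. ILC is known for loss of E-cadherin (CDH1), for p120-catenin that moves into the cytoplasm, and for beta-catenin that is lost from the membrane. Gene counts show transcript abundance only. They do not show whether a transcript encodes a whole protein, or where that protein is.

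The libraries held 28583554 to 134882175 estimated counts (median 44018412). In SUM44 LTED-A, the difference between replicates 2 and 3 was below sampling noise, and the pair was counted as 1 sample, its mean, which left 26 samples and n = 2 in that variant. All 8 epithelial and luminal markers were above 3 counts in every library, and their sum ranged from 4338 to 8110 CPM (counts scaled to a common library total) over the libraries. SUM44F replicate 1 stood apart in fibroblast markers: the 10 markers summed to 514 CPM in it, against 84.1 CPM in the lowest library of that group. Results for the 10 genes that use SUM44F are therefore also given without that library where the call or value moves. Results for other genes and markers are given only with it. Levels of 1 gene across groups are normalised CPM (TMM factors over all samples), and n is 3 unless stated. A gene was called where edgeR's quasi-likelihood test gave an adjusted p under 0.001 and the fold change exceeded 1.5.

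**Figure D1:**
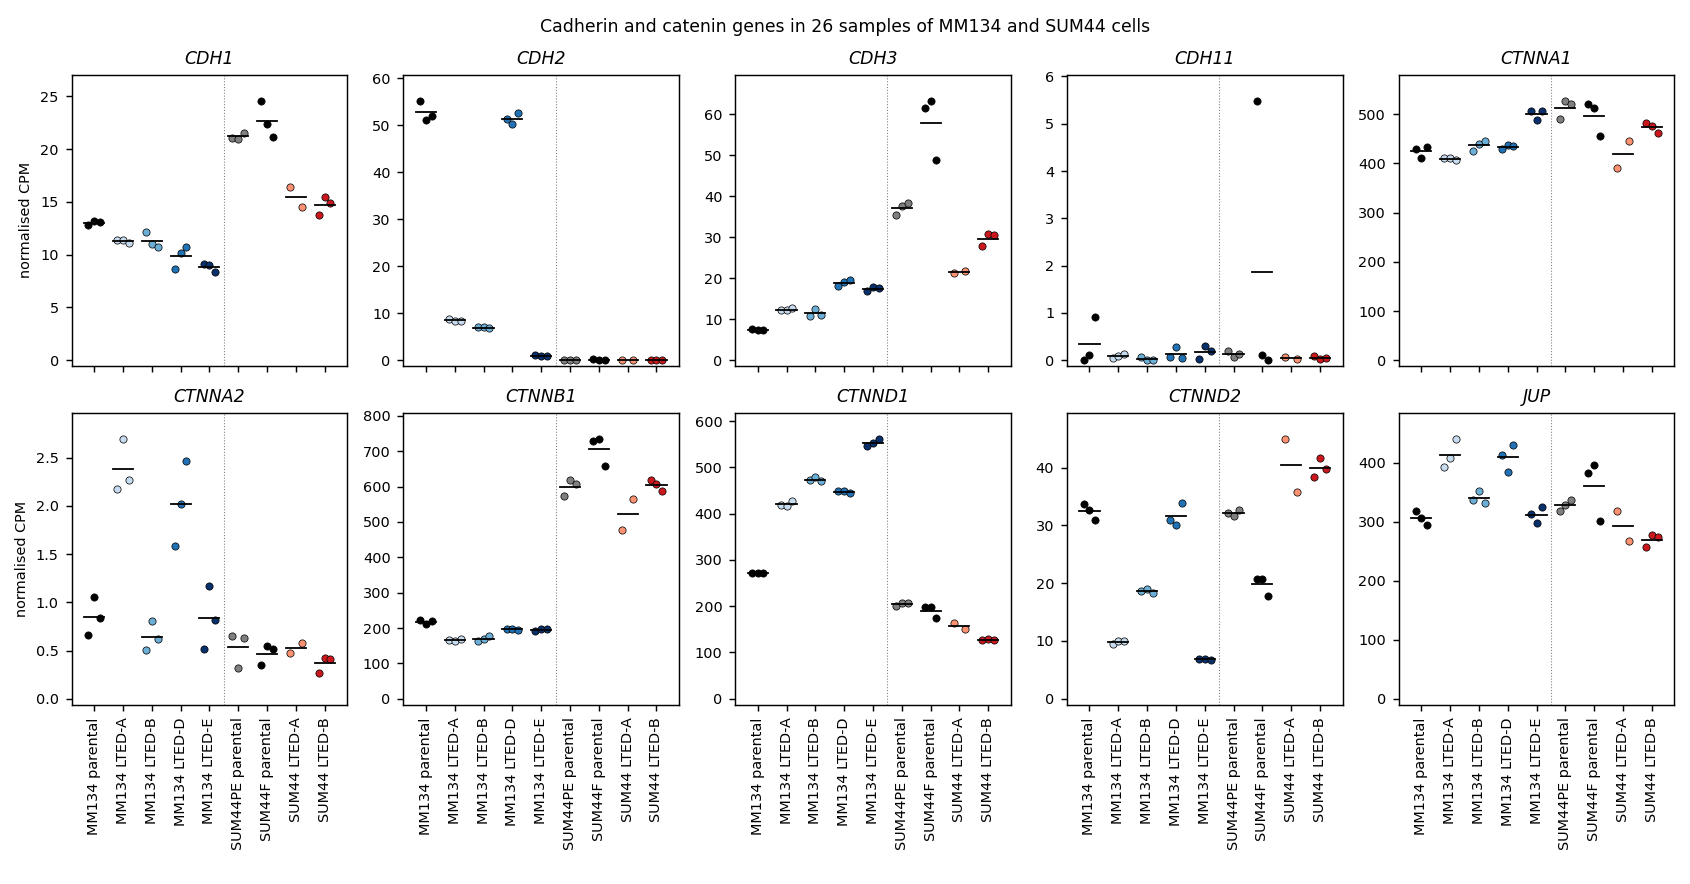
Normalised CPM of each of the 10 genes (y axis, 1 panel per gene, own linear scale) in the 26 samples of the 9 groups (x axis); points are samples, bars are group means. CDH2 sits between 50.2 and 55.3 CPM in MM134 parental and LTED-D cells and falls to 1.02 CPM in LTED-E, while CTNND1 is above the parental level in every MM134 LTED sample.

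N-cadherin (CDH2) is the cadherin of neurons and mesenchymal cells. The gene (ENSG00000170558) lies on the minus strand at chr18:27932879-28177946 of hg38. MM134 parental cells had 55.3, 51.2 and 52.1 CPM, and LTED-D cells 51.4, 50.2 and 52.6 CPM. LTED-A cells had 8.86, 8.41 and 8.46 CPM, LTED-B cells 7.01, 7.06 and 6.82 CPM, and LTED-E cells 1.04, 1.02 and 0.991 CPM. The parental and LTED-D samples overlapped, and the other variants stood below them and apart from each other. CDH2 was 6.16-fold lower in LTED-A (log2 fold change -2.62 ± 0.04 SE, adjusted p = 8.06e-20), 7.56-fold lower in LTED-B (-2.92 ± 0.04, adjusted p = 1.03e-19) and 51.6-fold lower in LTED-E (-5.69 ± 0.06, adjusted p = 4.51e-22). Its log2 fold change in LTED-D was -0.03 ± 0.04 (adjusted p = 0.573). The highest and lowest of the 4 variants differed 50.7-fold (adjusted p = 2.3e-21).

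SUM44 cells had almost no CDH2 transcript. The counts were 4, 3 and 3 in SUM44PE, 17, 1 and 6 in SUM44F, 2, 4 and 2 in SUM44 LTED-A, and 1, 2 and 0 in SUM44 LTED-B. A count of 0 in a library allows up to 3 counts (a floor that covers counting error only), and most of these libraries were at or near that floor. CDH2 was not tested within SUM44, since its counts did not pass the filter on low counts. MM134 parental cells exceeded SUM44F cells by 8.64 ± 0.24 on the log2 scale (399-fold, adjusted p = 4.87e-20), and by 9.99 without SUM44F replicate 1, the library with 17 counts.

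Delta-catenin (CTNND2) is the p120-catenin relative of neurons. The gene (ENSG00000169862) lies on the minus strand at chr5:10971836-11904446. Parental MM134 samples had 33.6, 32.6 and 30.9 CPM, and LTED-D cells 30.9, 30.1 and 33.9 CPM. LTED-B cells had 18.6, 19.0 and 18.3 CPM, LTED-A cells 9.53, 9.93 and 10.0 CPM, and LTED-E cells 6.94, 6.88 and 6.67 CPM. As for CDH2, LTED-D overlapped the parental samples and the other 3 variants stood below them. The log2 fold change was -1.73 ± 0.05 in LTED-A (adjusted p = 4e-16), -0.79 ± 0.05 in LTED-B (adjusted p = 4.21e-11), -2.24 ± 0.05 in LTED-E (adjusted p = 3.12e-17) and -0.02 ± 0.04 in LTED-D (adjusted p = 0.743). The 4 comparisons share the parental libraries. In the test among the variants, which does not use the parental level, CTNND2 differed 4.65-fold between the highest and lowest variant (adjusted p = 1.17e-16).

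In SUM44, CTNND2 went up. SUM44F cells had 20.7, 20.8 and 17.8 CPM, SUM44PE cells 32.2, 31.6 and 32.6 CPM, the 2 samples of SUM44 LTED-A 44.9 and 35.8 CPM, and SUM44 LTED-B cells 38.4, 41.7 and 39.8 CPM. All SUM44F samples were below all others of the line. CTNND2 rose 2.04-fold in LTED-A (log2 fold change 1.03 ± 0.11, adjusted p = 3.27e-05) and 2.02-fold in LTED-B (1.02 ± 0.10, adjusted p = 1.5e-05). It was also 1.62-fold higher in SUM44PE than in SUM44F (0.69 ± 0.09, adjusted p = 7.34e-05), and LTED-A minus LTED-B was 0.01 ± 0.11 (adjusted p = 0.954). Over the 9 groups, SUM44 LTED-A and LTED-B overlapped at the top of the order, MM134 parental, SUM44PE and MM134 LTED-D followed and overlapped, then SUM44F with MM134 LTED-B, and MM134 LTED-A and LTED-E were lowest and apart.

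The stretches before the starts of CDH2 and CTNND2 are shown because these genes were called lower in the same 3 MM134 variants. They are the 250 bases upstream of the first RefSeq start of each gene (GRCh38.p14), read 5' to 3' on the gene's strand, CDH2 at chr18:28177131-28177380 (-) and CTNND2 at chr5:11904447-11904696 (-). Capitals mark matches, on either strand, to the E-box CAGGTG bound by SNAI and ZEB repressors, the CCAAT box and the GC box GGGCGG.
CDH2: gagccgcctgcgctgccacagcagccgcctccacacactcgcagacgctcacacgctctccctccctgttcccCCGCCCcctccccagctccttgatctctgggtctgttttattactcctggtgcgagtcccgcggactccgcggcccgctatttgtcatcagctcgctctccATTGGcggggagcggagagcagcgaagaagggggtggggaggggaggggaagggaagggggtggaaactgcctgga
CTNND2: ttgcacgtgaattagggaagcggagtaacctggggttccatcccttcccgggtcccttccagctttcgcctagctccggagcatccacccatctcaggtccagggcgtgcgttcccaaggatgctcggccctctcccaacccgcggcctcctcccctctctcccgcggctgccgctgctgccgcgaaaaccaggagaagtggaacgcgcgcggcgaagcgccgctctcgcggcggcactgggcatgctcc
The CDH2 window held 1 CCAAT box, 1 GC box and 0 E-boxes, and its GC content was 66.0%. The CTNND2 window held none of these motifs at 67.2% GC. Of 35116 RefSeq windows of this length, 17.5% held the E-box, 32.0% the CCAAT box and 42.6% the GC box. RefSeq windows were found for 6 of the 10 genes, and a match or its lack is a property of the letters only.

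Most of the neural markers that were tested fell in the MM134 variants, and 1 rose in LTED-B and LTED-D. The summed level of 10 neural markers was 239 to 241 CPM in MM134 parental cells. LTED-A cells held 42.6 to 44.1 CPM of them, LTED-B cells 79.4 to 85.7, LTED-D cells 130 to 132 and LTED-E cells 23.9 to 25.5. Of 6 neural markers that passed the filter, SNAP25, MAP2, TUBB3 and DCX were called lower in all 4 variants. SYT1, a synaptic vesicle protein, was called higher in LTED-B (log2 fold change 1.66, adjusted p = 1.28e-15) and LTED-D (2.56, adjusted p = 2.26e-18). SYT1 alone stood at 22.1 to 22.8 CPM in the parental libraries, 59.9 to 66.4 in those of LTED-B and 115 to 117 in those of LTED-D. It thus made most of the sum in both variants and a small part of it in the parental cells. The order of the sums among the variants rests on SYT1, and the higher parental sum does not. LTED-D thus had 4 neural markers lower, 1 higher, and a CDH2 level that overlapped the parental level. In SUM44 the same sum was 242 to 270 CPM in SUM44F cells, 99.5 to 103 CPM in LTED-A cells and 39.1 to 42.6 CPM in LTED-B cells, while CTNND2 was higher there. SYT1 made most of this sum in SUM44F and LTED-A (187 to 218 and 74.2 to 77.3 CPM) and was at most 0.686 CPM in LTED-B. Of 7 tested there, SNAP25, SYT1, MAP2 and TUBB3 were called lower in LTED-A, and in LTED-B SNAP25, SYT1 and MAP2 were called lower and STMN2 and DCX higher (1.47 and 2.24).

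Some markers of fibroblasts, which are mesenchymal cells, were also lower in the MM134 variants. The sum of all 10 was 341 to 356 CPM in the parental libraries, against 194 to 198 CPM with LTED-A, 181 to 185 with LTED-B, 160 to 175 with LTED-D and 105 to 108 with LTED-E. Of 7 tested, COL1A1, SPARC and FN1 were called lower in all 4 variants and VIM in LTED-E, and 0 were called higher. VIM was not called in LTED-A, B and D (-0.20, 0.06 and -0.46). Its normalised level was 132 CPM in parental cells and 137 CPM in LTED-B. The rest of the 7 were not called in any MM134 variant. The defining genes COL1A2, COL3A1, LUM and DCN together stayed at or below 1.59 CPM in every MM134 library except parental replicate 3 (13.8) and LTED-D replicate 2 (11.8). LTED-D was again among the variants with a lower sum of markers while its CDH2 overlapped the parental level. The part of these neural and fibroblast transcripts in the results for CDH2 and CTNND2 was not tested, and in bulk RNA fewer cells with a transcript cannot be told apart from less transcript per cell.

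E-cadherin (CDH1), the epithelial cadherin whose loss marks ILC, was detected in every library. The gene (ENSG00000039068) lies on the plus strand at chr16:68737292-68835537. In MM134, parental cells had 12.8, 13.2 and 13.1 CPM, and each LTED sample was below them: LTED-A 11.4, 11.4 and 11.1 CPM, LTED-B 12.2, 11.1 and 10.7, LTED-D 8.62, 10.2 and 10.7, and LTED-E 9.12, 9.07 and 8.36. The log2 fold changes were -0.21 ± 0.07, -0.19 ± 0.07, -0.38 ± 0.07 and -0.55 ± 0.07 in that order, all short of 1.5-fold. Their adjusted p-values were 0.0167, 0.0302, 0.000188 and 2.99e-06.

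SUM44 cells had more CDH1 transcript than MM134 cells. SUM44F cells had 24.6, 22.4 and 21.2 CPM, SUM44PE cells 21.1, 20.9 and 21.6, SUM44 LTED-A 16.4 and 14.5, and SUM44 LTED-B 13.7, 15.4 and 14.9. Both LTED variants were below both parental groups and overlapped each other. CDH1 was 1.54-fold lower in LTED-B (log2 fold change -0.63 ± 0.09, adjusted p = 0.000284) and 1.47-fold lower in LTED-A (-0.55 ± 0.10, adjusted p = 0.0018, not called). The call in LTED-B was lost when any 1 of 5 of the 6 libraries was left out (-0.57, adjusted p = 0.00132, without SUM44F replicate 1). MM134 parental cells had 1.74-fold less CDH1 than SUM44F cells (-0.80 ± 0.07, adjusted p = 7.92e-10).

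P-cadherin (CDH3), a cadherin of basal and myoepithelial cells, is encoded next to CDH1 on the same strand (ENSG00000062038, chr16:68636189-68727468), and 9823 bases separate the genes. The parental MM134 level was 7.72, 7.28 and 7.45 CPM. LTED-A cells had 12.1, 12.2 and 12.7 CPM, LTED-B cells 10.8, 12.4 and 10.9, LTED-D cells 18.0, 19.1 and 19.5, and LTED-E cells 16.8, 17.8 and 17.6. All LTED samples were above all parental samples, with D and E above A and B. CDH3 rose 1.64-fold in LTED-A, 1.53-fold in LTED-B, 2.55-fold in LTED-D and 2.34-fold in LTED-E (log2 fold changes 0.72, 0.61, 1.35 and 1.23, each ± 0.06, with adjusted p-values of 4.3e-09, 7.98e-08, 6.08e-13 and 1.66e-12). The call in LTED-B was lost without LTED-B replicate 2, where the log2 fold change was 0.55. The 4 variants differed 1.67-fold at most (adjusted p = 8.18e-10).

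In SUM44, CDH3 moved the other way. SUM44F cells had 61.6, 63.3 and 48.9 CPM, SUM44PE cells 35.5, 37.6 and 38.3, SUM44 LTED-A 21.3 and 21.8, and SUM44 LTED-B 27.7, 30.8 and 30.4. No group of the line overlapped another. CDH3 was 2.69-fold lower in LTED-A (log2 fold change -1.43 ± 0.11, adjusted p = 4.59e-06) and 1.95-fold lower in LTED-B (-0.96 ± 0.10, adjusted p = 2.08e-05). It was 1.57-fold lower in SUM44PE than in SUM44F (-0.65 ± 0.09, adjusted p = 0.000181), a call that was lost without any 1 of the SUM44PE libraries. Even so, MM134 parental cells had 7.73-fold less CDH3 than SUM44F cells (-2.95 ± 0.08, adjusted p = 4.22e-20). The fold changes of CDH1 were thus below 0 in all 6 variants, while those of its neighbour CDH3 were above 0 in MM134 and below 0 in SUM44.

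The median of the genes around CDH3 stayed near 0. In MM134, the 50 tested genes within 1 Mb of CDH3 that reached 1 CPM in some group had median log2 fold changes between -0.071 and 0.047 over the 4 variants. In SUM44 the medians were -0.061 in LTED-A and 0.036 in LTED-B. Markers of basal and myoepithelial cells, where CDH3 is usually found, summed to 17.5 to 19.5 CPM in MM134 parental cells. The sum was 22.9 to 24.8 CPM with LTED-A, 22.0 to 24.1 with LTED-B, 28.7 to 31.2 with LTED-D and 18.4 to 19.5 with LTED-E. MYLK, a smooth muscle kinase, was 7.28 to 8.64 CPM in the parental libraries and was called higher in LTED-A, B and D (1.08, 0.94 and 1.62), where it made most of the sum, and ACTA2 was called higher in LTED-B and E (0.79 and 0.89). The basal factor TP63 was called lower in LTED-A, D and E (-1.91, -2.34 and -2.26), from 0.431 CPM, so members of this list moved in opposite directions while CDH3 rose. In SUM44F the sum was 17.7 to 21.7 CPM, in LTED-A 8.57 to 13.9 and in LTED-B 11.3 to 11.7, with KRT17 and TP63 called lower in both variants. KRT5 and KRT14, the defining keratins of these cells, did not exceed 0.157 and 0.644 CPM in any library. The part of these transcripts in the CDH3 result was not tested.

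**Figure D2:**
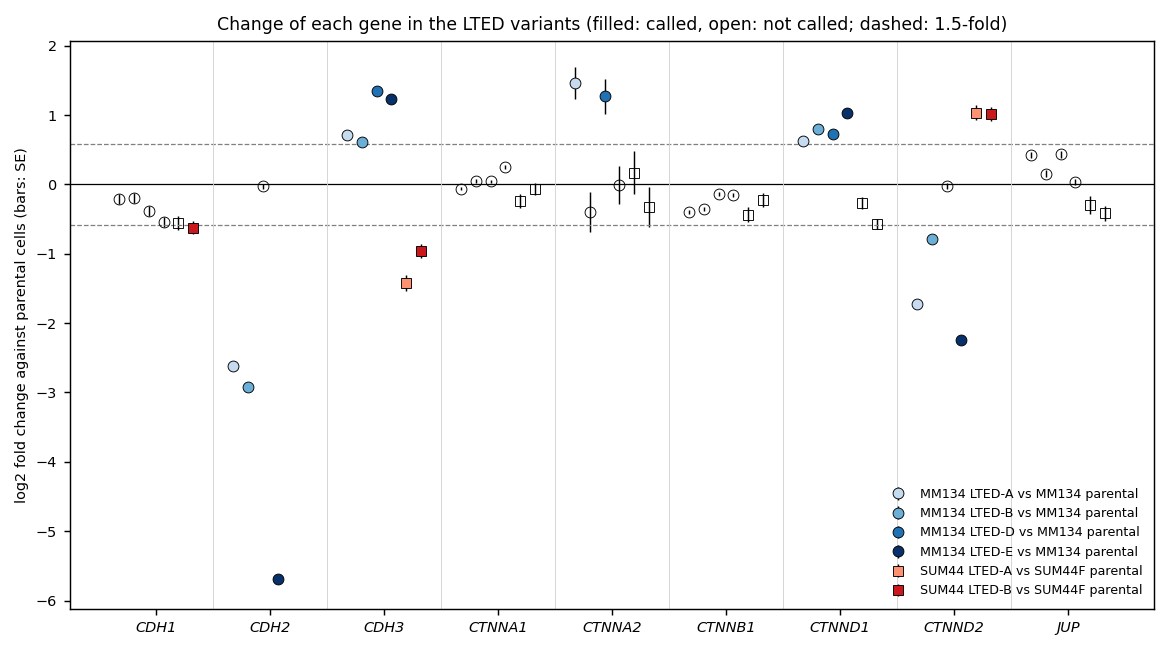
log2 fold change of 9 genes (x axis) in each LTED variant against its parental cells (y axis), with the SE as a bar; circles are MM134 and squares SUM44, filled where called. CDH3 and CTNND1 are above the upper 1.5-fold line in all 4 MM134 variants, CDH2 and CTNND2 below the lower line in A, B and E, and in SUM44 CDH3 is below and CTNND2 above.

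Because longer transcripts give more counts, genes were compared with each other only on counts per kilobase of the canonical transcript. On that scale CDH2 made up 74.8% ± 0.90 (SD) of the summed level of the 4 cadherins in MM134 parental cells and 67.0% ± 1.42 in LTED-D cells. Its share was 29.4% ± 0.69 in LTED-A, 26.1% ± 0.46 in LTED-B and 4.19% ± 0.15 in LTED-E. CDH1 held 15.4% in the parental cells and 10.7% in LTED-D, against 32.3% in LTED-A, 35.4% in LTED-B and 30.5% in LTED-E, although its own CPM was lower in each variant. CDH3 was the largest share in LTED-E, with 64.9% ± 1.36. In SUM44 cells CDH3 led in every group, with 72.1% ± 2.88 in SUM44F, 65.2% in SUM44PE, 60.0% in LTED-A and 68.5% in LTED-B, and CDH1 made up nearly all of the rest. Among these 4 genes, the largest share was therefore CDH2 in MM134 parental and LTED-D cells, with lengths taken either way. It was CDH3 in LTED-E and all SUM44 groups, also with either length. Other cadherins, desmosomal ones such as DSG2 among them, were not part of this sum. In LTED-B, CDH3 (38.5%) and CDH1 (35.4%) were close, and with merged exon lengths CDH1 was the larger.

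**Figure D3:**
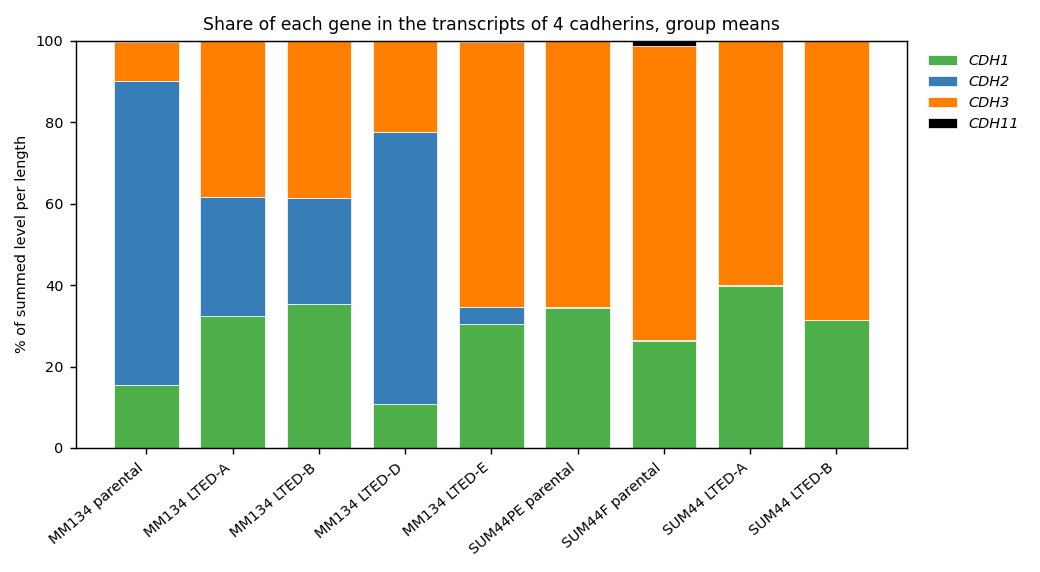
Mean share of CDH1, CDH2, CDH3 and CDH11 in the summed level per length of these 4 genes (y axis, percent) in each of the 9 groups (x axis). CDH2 fills 74.8% of the bar in MM134 parental cells and 4.19% in LTED-E, and CDH3 is the largest share in all SUM44 groups.

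Cadherin-11 (CDH11), a cadherin of fibroblasts and bone-forming cells, was near 0 in these cells except in 1 library. The gene (ENSG00000140937) lies on the minus strand at chr16:64943753-65126112. It had 253 counts (5.49 normalised CPM) in SUM44F replicate 1, against 6 and 0 counts in replicates 2 and 3. MM134 parental replicate 3 had 28 counts against 0 and 4, and no other library had more than 14. Within MM134 no comparison called CDH11, and within SUM44 it did not pass the filter on low counts.

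The pair of libraries with the most CDH11 counts also had the most fibroblast transcripts. MM134 LTED-D replicate 2, next in fibroblast transcripts, had 10 CDH11 counts against 2 and 2 in replicates 1 and 3. Among libraries with fewer fibroblast transcripts the match did not hold. MM134 LTED-E replicate 2 had 14 counts of CDH11, the most after that pair, and 1.23 CPM over COL1A2, COL3A1, LUM and DCN. This was below the 1.59 CPM of MM134 parental replicate 1, where CDH11 had 0 counts. Collagen COL3A1 was at 139 CPM of the library in SUM44F replicate 1 and at no more than 0.730 in replicates 2 and 3, and the proteoglycan LUM was at 59.3 against at most 0.0131. Summed over COL1A2, COL3A1, LUM and DCN, fibroblast transcripts made 274 CPM in SUM44F replicate 1, 13.8 in MM134 parental replicate 3, 11.8 in MM134 LTED-D replicate 2, and at most 3.88 in the other 24 libraries. Replicate 1 of SUM44F had levels of CDH1, CDH3, CTNNA1, CTNNB1, CTNND1, CTNND2 and JUP between 0.961 and 1.02 times the higher of the other 2 libraries. At low levels in replicate 1, CDH2 stood at 4.86 times (0.382 against 0.0787 CPM) and CTNNA2 at 0.596 times (0.360 against 0.603 CPM). The comparison of MM134 parental with SUM44F cells gave a log2 fold change of -2.48 ± 1.16 for CDH11 (adjusted p = 0.0659) and of 2.76 without that library (adjusted p = 0.0502).

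**Figure D4:**
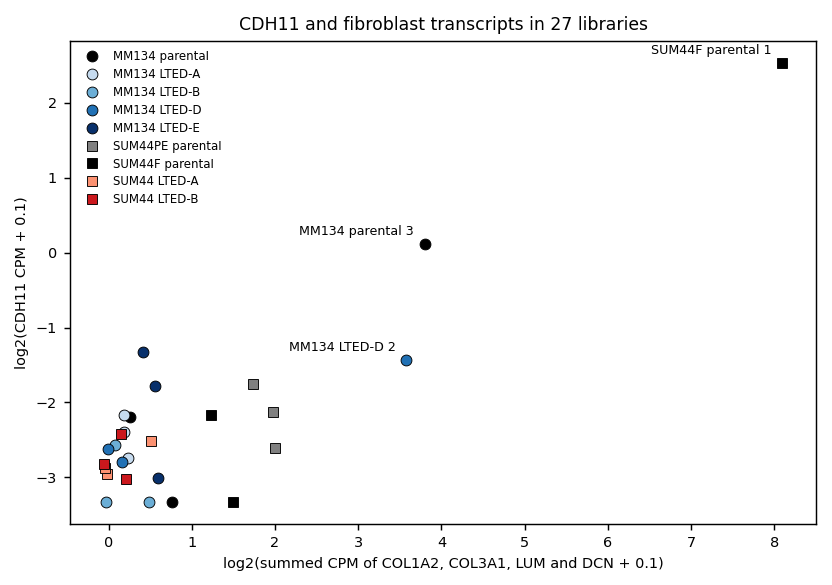
CDH11 (y axis) against the sum of the fibroblast genes COL1A2, COL3A1, LUM and DCN (x axis), both as log2(CPM + 0.1), in all 27 libraries; circles are MM134 and squares SUM44. SUM44F replicate 1 lies far from the rest at 5.69 CPM of the library total for CDH11 and 274 CPM for the fibroblast genes, and MM134 parental replicate 3 comes next on both axes.

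p120-catenin (CTNND1) holds cadherins at the membrane. The gene (ENSG00000198561) lies on the plus strand at chr11:57753243-57819546. The 3 parental MM134 samples had 272, 272 and 271 CPM. LTED-A cells had 418, 417 and 428 CPM, LTED-B cells 472, 478 and 470, LTED-D cells 449, 448 and 444, and LTED-E cells 546, 553 and 561. The groups did not overlap, and every variant was above its parent. CTNND1 rose 1.54-fold in LTED-A, 1.75-fold in LTED-B, 1.66-fold in LTED-D and 2.05-fold in LTED-E (log2 fold changes 0.63, 0.81, 0.73 and 1.04, each ± 0.02, with adjusted p-values of 1.22e-14, 5.43e-16, 2.07e-15 and 8.71e-18). The 22 neighbouring genes within 1 Mb had median log2 fold changes of 0.005 to 0.153 in these comparisons.

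SUM44 cells had less CTNND1 than any MM134 group. SUM44F cells had 197, 198 and 175 CPM, SUM44PE cells 201, 207 and 207, SUM44 LTED-A 164 and 151, and SUM44 LTED-B 127, 129 and 127. The LTED samples were below the parental samples, and LTED-B below LTED-A. The log2 fold change was -0.58 ± 0.07 in LTED-B (adjusted p = 9.87e-05), 1.49-fold and so just short of the fold limit, and -0.27 ± 0.08 in LTED-A (adjusted p = 0.0261). Without SUM44F replicate 3 the fall in LTED-B passed the limit, at -0.63. On average over variants, the MM134 LTED cells had 3.32-fold more CTNND1 than the SUM44 LTED cells (log2 difference 1.73 ± 0.03, adjusted p = 2.53e-24), where the parental lines differed by 0.51 ± 0.04 (1.43-fold, not called).

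Beta-catenin (CTNNB1) joins cadherins to alpha-catenin and is also the transcriptional arm of WNT signalling. The gene (ENSG00000168036) lies on the plus strand at chr3:41194741-41260096. Its level separated the lines. All 15 MM134 samples had 163 to 222 CPM, and all 11 SUM44 samples had 478 to 734 CPM. MM134 parental cells had 3.25-fold less CTNNB1 than SUM44F cells (log2 fold change -1.70 ± 0.05, adjusted p = 6.06e-19), and the LTED means differed 3.10-fold (-1.63 ± 0.03, adjusted p = 2.75e-23). Within lines the shifts were small. The log2 fold changes were -0.39, -0.35, -0.13 and -0.15 in MM134 LTED-A, B, D and E, each ± 0.03, with adjusted p-values of 5.27e-10, 4.45e-09, 0.000472 and 0.000144 but under 1.5-fold. In SUM44 they were -0.44 ± 0.11 in LTED-A (adjusted p = 0.00928) and -0.22 ± 0.10 in LTED-B (adjusted p = 0.0822). ULK4, on the opposite strand, overlaps CTNNB1 and reached 25.4 CPM. Whether the strand was used in counting is not given in the sources used here.

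Plakoglobin (JUP) can take the place of beta-catenin on cadherins and is also a part of desmosomes. The gene (ENSG00000173801) lies on the minus strand at chr17:41754604-41786931. Its level in MM134 parental cells was 318, 306 and 294 CPM, LTED-A cells 394, 408 and 440, LTED-B cells 338, 352 and 332, LTED-D cells 413, 385 and 431, and LTED-E cells 313, 299 and 325. LTED-A, LTED-B and LTED-D were above the parental samples, and LTED-E overlapped them. The log2 fold changes were 0.43, 0.16, 0.43 and 0.04, each ± 0.04, and none reached 1.5-fold (adjusted p = 1.24e-07, 0.00681, 1.34e-07 and 0.515). SUM44F cells had 383, 397 and 302 CPM and so a spread of 51 around their mean of 360. SUM44 LTED-A had 318 and 268 CPM, and SUM44 LTED-B 257, 278 and 275. The log2 fold changes there were -0.30 ± 0.13 in LTED-A and -0.42 ± 0.11 in LTED-B (adjusted p = 0.0964 and 0.012).

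Per length of the canonical transcript, the lines differed in which of the interchangeable partners was more abundant. JUP stood at 1.47 ± 0.06 (SD) times CTNNB1 in MM134 parental cells, 2.60 ± 0.14 times in LTED-A, 2.09 ± 0.11 in LTED-B, 2.18 ± 0.13 in LTED-D and 1.68 ± 0.08 in LTED-E. In SUM44 the ratio was 0.531 ± 0.045 in SUM44F, 0.571 ± 0.013 in SUM44PE, 0.595 ± 0.140 (n = 2) in LTED-A and 0.466 ± 0.029 in LTED-B. No SUM44 sample reached the ratio of any MM134 sample. With merged exon lengths in place of the canonical transcript, the ratio was 3.35 in MM134 parental and 1.21 in SUM44F cells. It was 1.30 in SUM44PE, 1.36 in SUM44 LTED-A and 1.06 in SUM44 LTED-B. The order of the lines stayed, but JUP was then above CTNNB1 in every SUM44 group as well.

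The windows before the starts of CTNNB1 and JUP are shown because these genes set that ratio, and JUP because its downstream start holds E-boxes. They are the 250 bases before the CTNNB1 start at chr3:41199255-41199504 (+) and before the more downstream of 2 JUP starts at chr17:41785977-41786226 (-), with capitals as above.
CTNNB1: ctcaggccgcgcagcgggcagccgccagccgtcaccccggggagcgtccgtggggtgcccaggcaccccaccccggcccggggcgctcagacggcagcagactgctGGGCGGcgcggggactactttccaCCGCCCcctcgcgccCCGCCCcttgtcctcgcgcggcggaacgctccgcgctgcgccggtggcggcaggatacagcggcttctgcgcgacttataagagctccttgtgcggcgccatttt
JUP: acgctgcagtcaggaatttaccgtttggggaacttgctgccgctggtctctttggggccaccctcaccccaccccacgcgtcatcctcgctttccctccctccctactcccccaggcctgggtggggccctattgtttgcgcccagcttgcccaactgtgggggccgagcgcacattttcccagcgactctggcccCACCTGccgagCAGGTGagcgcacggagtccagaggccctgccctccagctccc
The CTNNB1 window held 3 GC boxes and the JUP window 2 E-boxes. That JUP window was picked for the E-box, which 17.5% of all windows held. No other window found for the reported genes held it. The window of the other JUP start held 1 CCAAT box, 2 GC boxes and 0 E-boxes.

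Alpha-E-catenin (CTNNA1), the link from the complex to actin in epithelial cells, varied little between groups. The gene (ENSG00000044115) lies on the plus strand at chr5:138610967-138935034. Its group means ran from 409 CPM in MM134 LTED-A to 513 CPM in SUM44PE. Neighbours in the order of the 9 means overlapped, apart from SUM44 LTED-B against MM134 LTED-B. No comparison called it. The difference furthest from 0 among the variants was in MM134 LTED-E (log2 fold change 0.25 ± 0.03, 1.19-fold, adjusted p = 1.62e-07).

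Alpha-N-catenin (CTNNA2), its relative in neurons, was near 1 CPM throughout. The gene (ENSG00000066032) lies on the plus strand at chr2:79185231-80648861. MM134 parental cells had 0.658, 1.05 and 0.842 CPM (23 to 39 counts), LTED-A cells 2.18, 2.69 and 2.27, LTED-B cells 0.511, 0.803 and 0.622, LTED-D cells 1.58, 2.02 and 2.46, and LTED-E cells 0.519, 1.17 and 0.816. LTED-A and LTED-D were above all parental samples, and LTED-B and LTED-E overlapped them. CTNNA2 rose 2.76-fold in LTED-A (log2 fold change 1.46 ± 0.24, adjusted p = 3.14e-05) and 2.41-fold in LTED-D (1.27 ± 0.25, adjusted p = 0.000273). The call in LTED-D was lost without parental replicate 1 or 3 or LTED-D replicate 2 or 3. LTED-D, whose CDH2 and CTNND2 levels overlapped the parental samples, was thus among the variants with more CTNNA2. SUM44 samples had 0.271 to 0.651 CPM, and no SUM44 comparison called the gene.

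Counted over the 10 genes, MM134 LTED-A had 3 called higher and 2 lower, where 10.5% of all 26061 tested genes were called higher and 9.82% lower. LTED-B had 2 higher and 2 lower (8.11% and 7.75% of all genes), LTED-D 3 higher and 0 lower (9.63% and 7.95%), and LTED-E 2 higher and 2 lower (8.71% and 10.3%). Among the 4 variants, 4 of 10 genes differed, against 19.6% of all genes: CDH2, CDH3, CTNNA2 and CTNND2. In SUM44, 8 of the genes were tested. LTED-A had 1 higher and 1 lower (6.39% and 7.28% of 26834 genes), LTED-B 1 higher and 2 lower (8.69% and 8.57%), and SUM44PE against SUM44F 1 higher and 1 lower (2.85% and 2.72% of 27457 genes). Between SUM44 LTED-A and LTED-B, 0 of 8 were called by edgeR and 0 by DESeq2, with 2 at an unadjusted p under 0.05 (CDH3 and CTNND1), and of all genes 3.56% were called higher and 3.86% lower.

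Between the parental lines, 2 of the 10 genes were higher in MM134 (CDH2 and CTNND2) and 3 lower (CDH1, CDH3 and CTNNB1), where 19.1% of 29608 genes were called higher and 19% lower. Between the means of the LTED variants, 3 were higher in MM134 (CDH2, CTNNA2 and CTNND1) and 3 lower (CDH3, CTNNB1 and CTNND2), against 20.2% and 18.5% of all genes. CTNND2 therefore changed sides when SUM44F was the parent. It was 1.64-fold higher in MM134 than in SUM44F parental cells (log2 fold change 0.72 ± 0.07, adjusted p = 1.81e-09). In the LTED mean it was 2.84-fold lower (-1.51 ± 0.04, adjusted p = 4.56e-20). The MM134 variants in that mean ran from 6.83 CPM in LTED-E to 31.6 CPM in LTED-D. SUM44PE cells, at 32.1 CPM, overlapped MM134 parental cells at 32.4 CPM. The difference between the lines in their LTED change was called above 0 for CDH3, CTNND1 and JUP and below 0 for CTNND2, where 10.9% of all genes were called above 0 and 10.1% below.

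The other genes of these junctions are given from lists of relatives and partners. Of 18 other cadherins, 14 were tested in MM134, and 0 to 1 were called higher and 2 lower in each variant. The 2 were CDH7, a cadherin of the nervous system, whose log2 fold change was -3.40, -3.84, -2.44 and -3.19 in variants A, B, D and E, and CDH24 at -0.61 to -0.68. The list's median was -0.284, -0.293, -0.499 and 0.050, beside -0.007, 0.021, -0.028 and 0.017 over all genes. In SUM44, 0 of 16 were called in LTED-A, and CDH18 was called lower in LTED-B.

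Desmosomes, the other cadherin-based junctions, use JUP as well. The desmosomal cadherin DSG2 fell in all 4 MM134 variants, from 39.8 CPM in parental cells to 3.17, 3.82, 8.01 and 3.41 CPM (log2 fold changes -3.66, -3.37, -2.30 and -3.53), and in both SUM44 variants (-1.55 and -2.36). DSC2, its partner, fell in MM134 LTED-A, D and E (-1.08, -1.11 and -0.97). PERP, a membrane protein of desmosomes, rose from 2.05 CPM in MM134 parental cells to 127, 97.9, 86.6 and 151 CPM (5.94, 5.57, 5.40 and 6.21). In SUM44, PERP fell in LTED-A (-1.14) and was at 0.11 in LTED-B without a call, and periplakin (PPL) fell in both variants (-1.25 and -1.70). Of 7 tested genes of this list, the MM134 variants had 1 higher and 1 to 2 lower, with medians of -0.315, 0.014, 0.099 and 0.012. Of 8 tested in SUM44, LTED-A had 0 higher and 3 lower and LTED-B 1 higher and 2 lower, with medians of -1.004 and -0.981 beside -0.057 and -0.093 over all genes.

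Among 15 other catenin-like and nectin junction proteins, 14 were tested in MM134. Plakophilin-2 (PKP2), a desmosomal relative of p120-catenin, rose in all 4 variants (1.37, 0.98, 1.28 and 1.92), while the adhesion receptor NECTIN1 fell in LTED-A, B and E (-0.73, -0.70 and -0.70). In SUM44, PKP4, another p120-catenin relative, rose in both variants (0.65 and 0.66), and PKP2 was at -0.31 and -0.26 without a call. Counts over the list were 4 higher and 1 lower in MM134 LTED-A, 3 and 1 in B, 3 and 0 in D, and 1 and 3 in E, with medians of 0.034 to 0.102. In SUM44 they were 1 and 0 in LTED-A and 3 and 2 in LTED-B, with medians of 0.126 and -0.073.

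Genes that act on beta-catenin or respond to it were called in both directions. Of 15 genes of beta-catenin turnover and its nuclear partners, the MM134 variants had 0 to 1 called higher and 1 to 2 lower, with TCF7, a DNA-binding partner, lower in LTED-A, D and E (-1.27, -1.20 and -1.03). The medians were 0.002, -0.099, -0.049 and 0.026, and in SUM44 0 and 1 were called, both counts in the higher direction. Of 9 tested target genes, 2, 2, 5 and 2 were higher and 4, 1, 2 and 2 lower in LTED-A, B, D and E, with medians of 0.243, 0.204, 0.675 and -0.301. AXIN2, a feedback inhibitor, fell in all 4 (-2.71, -1.94, -1.41 and -2.86), while another feedback inhibitor, NKD1, rose in all 4 (4.60, 1.84, 1.24 and 3.66), as did the receptor TNFRSF19 (2.50, 2.25, 2.06 and 2.76). In SUM44, AXIN2 fell in LTED-A (-2.61) and was at -0.54 in LTED-B without a call. NKD1 fell in LTED-A and rose in LTED-B (-1.78 and 1.13), and TNFRSF19 rose in LTED-A and fell in LTED-B (1.07 and -2.69). Of 11 tested there, 2 were higher and 2 lower in LTED-A, and 4 higher and 2 lower in LTED-B.

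Of 12 transcription factors that act on cadherin genes, 10 were tested in MM134, with 1 called higher in each variant and 4, 2, 1 and 3 lower in LTED-A, B, D and E (medians -0.318, -0.210, -0.254 and -0.204). In SUM44, 1 was higher in each variant and 1 lower in LTED-A and 2 in LTED-B (medians -0.103 and 0.070). The epithelial factor ELF3 rose in all 4 variants (1.65, 0.77, 1.33 and 1.25) and fell in both SUM44 variants (-0.68 and -1.20). The repressor SNAI1 fell in LTED-A, B and E (-2.14, -1.78 and -1.68), from a parental level of 1.13 CPM. ZEB1, a repressor of CDH1, fell in LTED-A, B and D (-0.74, -1.14 and -1.66), from 1.85 CPM. In SUM44, ZEB1 fell in LTED-B (-2.80), from 2.64 CPM in SUM44F, and was at -1.22 in LTED-A without a call. OVOL1, an epithelial repressor of ZEB1, rose in both SUM44 variants (0.78 and 0.93).

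By likeness of pattern, each gene was compared with protein-coding genes over the 9 group means (Pearson's r of log2(CPM + 0.5), 14407 genes eligible), which share the libraries and the division into 2 cell lines, so r describes and does not test. CDH2 was followed most closely by PGF (r = 0.98), which had 22.0, 3.89, 4.06, 12.8 and 1.81 CPM in MM134 parental, LTED-A, B, D and E cells, and by KCNH6 and ADAMTS10. CTNND2 was followed by SLC22A17 (r = 0.966), with 34.8, 12.5, 18.4, 45.6 and 8.12 CPM in the same order, and by RASA4B and PALM. CDH3 was followed by CES1 (r = 0.971), and CTNND1 by GCNT1 (r = 0.989), which had 94.1 CPM in MM134 parental cells and 165 to 236 in the variants. CTNNB1 was followed by ITM2C (r = 0.997). CTNNA1 (PLA2R1, r = 0.930) and JUP (TPCN1, r = 0.905) had the least close followers. CDH11 was followed by PRDM1, CCND2 and COL1A2, all of which were high in the SUM44F group mean, where 1 library held the CDH11 counts. With a pseudocount of 0.1 in place of 0.5, 0 of the 3 genes most like CDH2 and 1 of the 3 most like CTNNB1 were retained.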

How the data were processed

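RNA-Seq libraries of MM134 and SUM44 cells (3 wells in each of 9 groups) were made by the authors with a stranded total RNA kit. The authors deposited estimated counts per gene, from Salmon 0.6.0 against hg38 and Ensembl 82, not normalised for depth or length; trimming and strand setting are not given in the sources used here. Symbols and positions are from GENCODE v44 by Ensembl ID. Estimated counts were rounded, and replicates 2 and 3 of SUM44 LTED-A (chi-square per degree of freedom 0.312, against 2.35 to 58.1 in 26 other pairs) were averaged.

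Genes passing filterByExpr were tested with edgeR 4.0.16 in R 4.3.3 (TMM factors, two-sided quasi-likelihood test, p-values adjusted over all genes by Benjamini-Hochberg): 1 fit of MM134 (26061 genes), 1 of SUM44F and SUM44 LTED (26834), 1 adding SUM44PE (27457) and 1 of all groups (29608) for contrasts between lines. Called genes changed over 1.5-fold with adjusted p under 0.001, the study's limits. Library depth was 28583554 to 134882175 counts. Beyond the 10 members, genes were named from lists of junction genes and cell type markers where called in 3 or more MM134 variants or both SUM44 variants in 1 direction (up to 3 of each list, by mean change), or as the 3 nearest in pattern; CDH18, SYT1, STMN2 and ACTA2 lay outside this rule and were named after their values were seen. Alternatives were DESeq2 1.42.0, RLE size factors, no filter, adjusted p under 0.05 without a fold limit, a replicate block, each library left out, merged exon lengths and another pseudocount. The procedure was tested on simulated data. The gene most like CDH1 in pattern and 1 list of catenin partners are not reported here. The members and lists were chosen with earlier results of these data known. Figures used matplotlib 3.10.9.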

Additional observations from a re-analysis of the deposited data

Results flagged for a closer look

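The LTED change, as the mean over variants on the log2 scale, differed between MM134 and SUM44 for 4 of the 10 genes by the interaction term of edgeR's fit to all 9 groups. It was called above 0 for 3 and below 0 for 1, where 10.9% of all 29608 genes were called above 0 and 10.1% below. The SE and adjusted p-values hold the spread between wells and not between the variants that were averaged. The change of CDH3 was 2.16 ± 0.09 (SE) higher in MM134 (adjusted p = 1e-15): CDH3 rose in all 4 MM134 variants and fell in both SUM44 variants. The change of CTNND1 was 1.22 ± 0.05 higher in MM134 (adjusted p = 4.5e-16), where the gene rose in all 4 variants and was not called in SUM44. The change of CTNND2 was lower in MM134, with a difference of -2.22 ± 0.08 (adjusted p = 5.17e-17). The gene fell in 3 of 4 MM134 variants (-1.73 in A, -0.79 in B and -2.24 in E, against -0.02 in D). It rose in both SUM44 variants. The change of JUP differed by 0.62 ± 0.09 (adjusted p = 4.97e-06), with no call in any single variant, and its call was lost at 0.58 with DESeq2 or RLE size factors and at 0.57 without SUM44F replicate 1. The other 6 genes were not called, CDH2 among them, whose SUM44 counts lay at the floor.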

How the results depend on the processing

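The number of the 10 genes called stayed within 1.5 times in all 12 comparisons with DESeq2, RLE size factors, no filter on low counts, a replicate block, and the SUM44 LTED-A replicates kept separate (chosen after seeing the data). With adjusted p under 0.05 and no fold limit, the count rose to 8 in MM134 LTED-A, 8 in B, 6 in D and 7 in E. In SUM44 it rose to 5 in LTED-A, 5 in B and 2 between these. Among the MM134 variants it rose to 9, and between the parental lines to 9. The share of all genes called at this limit was not computed, so these counts are not a result about the 10 genes. With each library left out, counts stayed within 1.5 times except for SUM44PE against SUM44F, which ran from 1 to 2, with CDH3 lost without each SUM44PE library in turn (-0.60, adjusted p = 0.0018; -0.66, 0.00133; -0.67, 0.00118). Deviations of same-numbered wells were weakly correlated at most (8 of 45 pairs with r over 0.1, range -0.269 to 0.181). Whether such wells share more than a number cannot be told from these correlations. With the replicate block, CDH1 in SUM44 LTED-B was lost (-0.62, adjusted p = 0.00106).

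Directions reversed only in differences that were not called. CTNND2 between SUM44 LTED-A and B was -0.0294 with the block and -0.0289 with separate replicates, and -0.13 to 0.16 over libraries left out. Over libraries left out, MM134 LTED-D gave CDH2 at -0.051 to 0.0072 and CTNND2 at -0.0689 to 0.0158, and MM134 LTED-E gave CTNNA2 at -0.32 to 0.22. CTNNA2 ran from -0.0124 to 0.34 in SUM44 LTED-A and from -0.0123 to 0.43 in SUM44PE. CDH11 ran from -2.50 to 0.58 in MM134 LTED-A, -2.50 to 1.19 in LTED-D and -1.44 to 1.65 in LTED-E, with each value above 0 from the fit without MM134 parental replicate 3. It ran from -5.00 to 2.76 between the parental lines and from -1.99 to 5.72 in the interaction, reversed without SUM44F replicate 1, and from -0.0861 to 0.95 between LTED means, reversed without MM134 LTED-B replicate 1. CTNNA1 between LTED means ran from -0.0695 to 0.0564, and the CTNNB1 interaction from -0.0423 to 0.11.

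CDH1 between LTED means (-0.55) was called with DESeq2 and RLE (-0.59 in both). The JUP interaction was lost at 0.58 with both, and over libraries left out it was lost 4 times (0.57, 0.57, 0.54 and 0.53 without MM134 parental 3, SUM44F 1, SUM44F 2 and SUM44 LTED-A 2). Merged exon lengths moved the JUP to CTNNB1 ratio to 3.35 in MM134 parental and 1.21 in SUM44F cells, and the CDH1 share of cadherins to 22.6% and 29%. Depth limits CDH2 in SUM44 and CDH11 in both lines, where counts are near the floor of 3, and CTNNA2, with 9 to 217 counts per library.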

Other observations

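On the scale per length of the canonical transcript, CTNNB1 stood at 3.38 ± 0.04 (SD) times the sum of CDH1, CDH2, CDH3 and CDH11 in MM134 parental cells and at 2.81 ± 0.09 times in LTED-D, against 6.24 ± 0.07 in LTED-A, 7.0 ± 0.46 in LTED-B and 8.82 ± 0.14 in LTED-E. In SUM44 the ratio was 10.8 ± 0.84 in SUM44F, 12.8 ± 0.30 in SUM44PE, 17.7 ± 2.50 (n = 2) in LTED-A and 17.0 ± 1.34 in LTED-B. With merged exon lengths the values were lower, 1.95 in MM134 parental and 4.66 in SUM44F cells, and the order of these groups was retained. The ratio of CTNND1 to CTNNA1 on the same scale was 0.360 ± 0.011 in MM134 parental cells and 0.580 to 0.622 in the 4 variants. In SUM44 it was 0.216 ± 0.002 in SUM44F, 0.225 ± 0.005 in SUM44PE, 0.214 ± 0.032 (n = 2) in LTED-A and 0.152 ± 0.003 in LTED-B. These ratios were chosen after the values of the genes were seen and were not tested.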
